A study of Mus musculus with 15 samples.

Results

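Mammary tumors with 2 floxed copies of Ctnnb1 were compared with tumors that carried 1 floxed copy and 1 wild-type copy, gene by gene. The members were chosen by the genotype in the labels: 5 tumors labelled Ctnnb1 fl/fl, called HOM here, and 5 labelled Ctnnb1 fl/wt, called HET, which makes 10 of the 15 tumors of the series. The remaining 5 tumors were labelled Ctnnb1 wt/wt (WT). They entered the choice of genes to test and of the array values that stand for each gene. They also entered the shared estimate of the spread between tumors and the values set beside the comparison. All 15 tumors came from ErbB2KI mice, a knock-in model in which Erbb2, the mouse counterpart of the human HER2 oncogene, drives mammary cancer, and all were flash frozen at end burden. The design text places the deletion of Ctnnb1 in the mammary epithelium, but the driver of the deletion, the ages of the mice and whether each tumor came from its own mouse are not stated in the sources used here. The p-values below therefore measure only the spread between these tumors. A whole tumor also holds stromal, vascular and immune cells in which Ctnnb1 was not targeted, and in such bulk tissue fewer cells of a type and less RNA per cell cannot be told apart. The values are log2 array values, and each difference is HOM minus HET.

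Ctnnb1 encodes beta-catenin, which binds the tail of E-cadherin at adherens junctions and, when Wnt ligands stop its breakdown by the destruction complex, enters the nucleus and switches on genes with TCF and LEF factors. Plakoglobin, encoded by Jup, is its closest relative, sits in desmosomes and can take the place of beta-catenin beside E-cadherin. In the mammary gland these junctions hold luminal cells in a layer, and Wnt signals act mainly on basal and progenitor cells.

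No gene passed the test between HOM and HET tumors. Of 14243 genes tested with limma, 0 were higher and 0 were lower in HOM at an adjusted p under 0.05 (0%), and the unmoderated linear model also called 0. The unadjusted p was under 0.05 for 1129 genes (7.93%), 686 higher and 443 lower in HOM, where chance alone gives 712 on average. The ribosome assembly factor gene Ppan had the smallest p, with a 2.03-fold higher mean in HOM. Milk genes, luminal markers and luminal progenitor genes mostly had higher means in HOM, and neutrophil genes mostly lower means. In 4 of the 5 HOM tumors a run of genes next to Jup was also higher than in every HET tumor.

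Some tumors stood apart, namely the tumor labelled HOM 5, HET 1, HET 3 and HET 5, and the plot of list medians shows each list with all tumors and with each of these 4 left out. Over the 14243 tested genes, correlations between pairs of HOM tumors lay between 0.894 and 0.971 and between pairs of HET tumors between 0.804 and 0.912. In the tumor labelled HOM 5, Ctnnb1 was the highest of the 10 HOM and HET values, and the array median and lower quartile were the highest of the series. In the tumor labelled WT 5, Ctnnb1 was the lowest of the WT values, and its closest match of all 15 tumors was HOM 1 (correlation 0.977). Whether the labels of these 2 tumors were exchanged cannot be told from the files, so each difference below is between tumors as labelled. HET 1 had the lowest mean of luminal markers (8.03, against 9.22 to 10.89 in the other HET tumors) and the highest of B and plasma cell markers (10.12, against 6.55 to 7.03). HET 3 carried skeletal muscle transcripts, with a mean of 11.07 over that list against 6.05 to 6.94 in the other HET tumors. Among the HET tumors, HET 5 had the highest means of interferon response genes (9.52 against 7.38 to 7.71) and of MHC class I genes (10.33 against 9.19 to 9.41). For MHC class I genes, HOM 4 was at 10.39 and WT 3 at 10.74. The luminal keratin gene Krt8 was at 12.15 to 12.39 in HOM and 11.64 to 12.54 in HET, well above the array medians of 5.54 to 5.73. Krt19, another luminal keratin gene, chosen after its values were seen, was 10.49 to 12.04 in HOM. In HET 1 to HET 5 Krt19 was 6.81, 10.13, 11.82, 8.37 and 11.22.

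The labels were checked on the targeted gene. Ctnnb1 (transcript cluster 17523257) had values of 11.58, 11.30, 11.36, 11.15 and 12.01 in HOM 1 to HOM 5, against 11.66, 11.39, 11.22, 11.63 and 11.60 in HET 1 to HET 5. The groups overlapped almost fully, with the lowest value in HOM 4 and the highest in the tumor labelled HOM 5. The mean was 11.48 ± 0.33 in HOM and 11.50 ± 0.19 in HET (SD, n = 5 each), a difference of -0.02 with a 95% interval of -0.44 to 0.40. Over all 252 ways to assign the 10 tumors, an exact permutation test (two-sided) gave p = 0.905, where the smallest possible p is 0.00794. Without the tumor labelled HOM 5 the difference was -0.15 (exact permutation p = 0.246). WT tumors had values of 11.71, 12.09, 12.10, 12.08 and, in the tumor labelled WT 5, 11.22, which is within the range of HOM 1 to HOM 4. Whether the probes of this cluster read the deleted exons is not known here, so the comparison below is one of genotype labels and not of measured deletion.

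**Figure D1:**
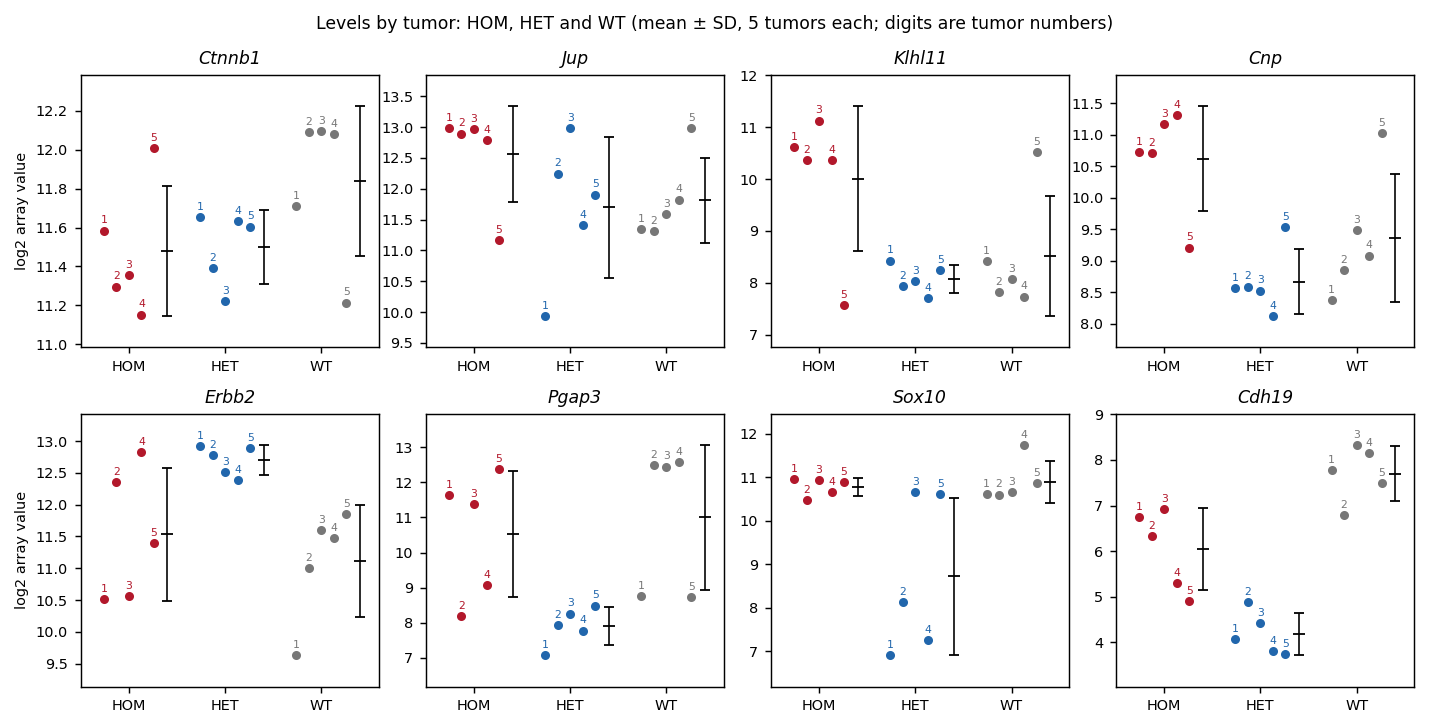
Log2 array values of 8 genes in each tumor, with HOM left of HET and HET left of WT; points are tumors, digits are tumor numbers, and the bars to the right give mean ± SD of 5 tumors. Ctnnb1 overlapped between HOM and HET, Klhl11 and Cnp were high in HOM 1 to HOM 4 and in the tumor labelled WT 5, and Sox10 was low in HET 1, HET 2 and HET 4 only.

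Jup, the plakoglobin gene, had values of 12.98, 12.90, 12.97, 12.79 and 11.17 in HOM 1 to HOM 5, against 9.94, 12.25, 12.98, 11.42 and 11.91 in HET 1 to HET 5. HOM 1 to HOM 4 lay close together, HET 3 reached the same level, and the tumor labelled HOM 5 lay below every HET tumor except HET 1. The difference in means was 0.86 (SE 0.52, 95% interval -0.25 to 1.98, limma adjusted p = 0.689), 0.42 without HET 1 and 1.21 without the tumor labelled HOM 5. The genes beside Jup, taken in the order of a RefSeq gene table (GRCm38.p6) on chromosome 11, followed the same split among the HOM tumors more sharply. Of the 10 tested genes that follow Jup, 8 were higher in each of HOM 1 to HOM 4 than in all 5 HET tumors, as was 1 of the 10 that precede it, where 2.07% of all tested genes showed this and 0.758% were lower in each of those 4 than in every HET tumor. The 8 were P3h4, Nt5c3b, Klhl10, Klhl11, Acly, Ttc25, Cnp and Dnajc7, and the 1 before Jup was Hap1. Apart from Cnp and Acly, these genes were chosen after their values were seen. In the tumor labelled HOM 5 all 10 of the genes after Jup were at or below the highest HET value.

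**Figure D2:**
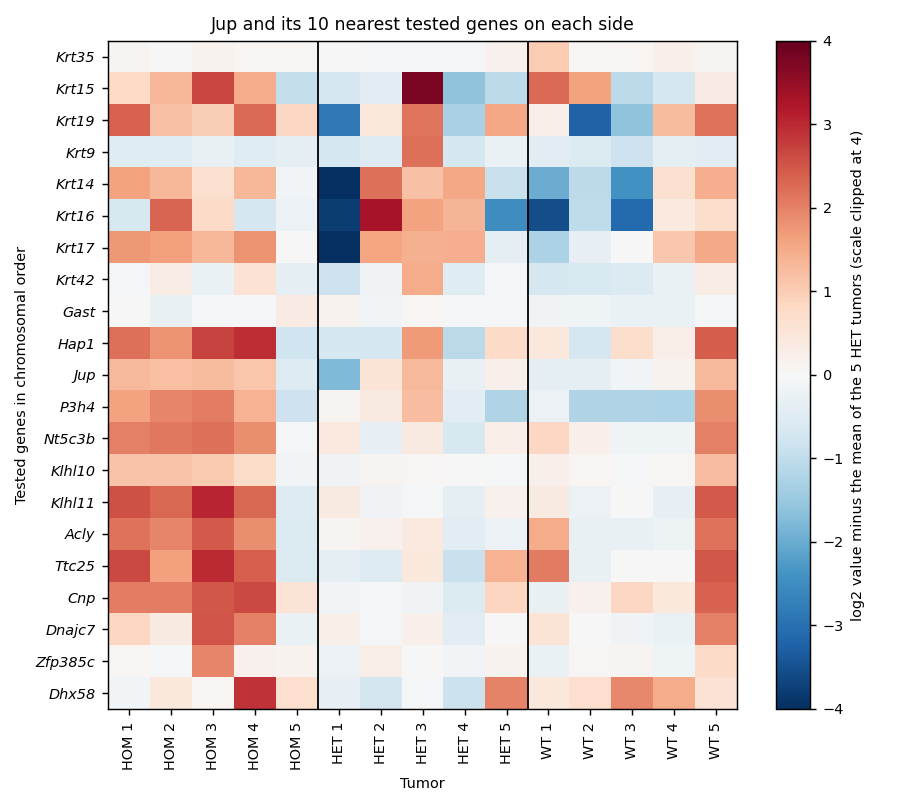
Jup and its 10 nearest tested genes on each side, in chromosomal order from top to bottom, in the 5 HOM, 5 HET and 5 WT tumors from left to right. Colour gives each log2 value minus the mean of the 5 HET tumors, and the block from P3h4 to Dnajc7 is above that mean in HOM 1 to HOM 4 and in the tumor labelled WT 5.

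Klhl11, whose product is a substrate adaptor of cullin ubiquitin ligases, showed the split most clearly. It had values of 10.62, 10.37, 11.12, 10.36 and 7.57 in HOM 1 to HOM 5, against 8.43, 7.94, 8.04, 7.71 and 8.25 in HET 1 to HET 5. HOM 1 to HOM 4 were all above the HET tumors, and the tumor labelled HOM 5 was below all of them. Cnp, a cyclic nucleotide phosphodiesterase gene best known from myelin-forming glia, had values of 10.72, 10.71, 11.16, 11.31 and 9.21 in HOM, against 8.56, 8.59, 8.53, 8.12 and 9.53 in HET. Acly, which makes acetyl-CoA for lipid synthesis from citrate, had values of 13.15, 12.94, 13.44, 12.85 and 10.42 in HOM, against 11.09, 11.15, 11.38, 10.52 and 10.76 in HET. With all tumors the differences were 1.93 for Klhl11, 1.96 for Cnp and 1.58 for Acly, each with a limma adjusted p of 0.587.

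The tumors labelled HOM 5, with the highest Ctnnb1 of the HOM and HET tumors, and WT 5, with the lowest of the WT tumors, were then left out. In that fit limma called 6 of 14243 genes (0.0421%), all higher in HOM as labelled: Klhl11 (difference 2.54, adjusted p = 0.00041), Snord61, Eif1-ps3, Klhl10, Cnp and Nt5c3b. That choice was made with the Ctnnb1 values and earlier results of these tumors known, so these calls are no independent evidence. Klhl10 and Snord61 were below the array's median in all 5 HET tumors and in the tumor labelled HOM 5, and they entered the test only through HOM 1 to HOM 4 and the tumor labelled WT 5, so no weight rests on their calls. Of the 6, 4 lie among the genes after Jup. Eif1-ps3 is a pseudogene of Eif1, which itself stands just before Gast in the same stretch, and whether its probes also read Eif1 was not tested. It had values of 11.16, 11.22, 11.06, 10.98 and 9.80 in HOM, against 9.65, 9.82, 9.85, 9.44 and 9.97 in HET. Snord61, a small nucleolar RNA that guides methylation of ribosomal RNA, lies on chromosome X. Without the tumor labelled HOM 5 alone, limma called 0 genes in the fit of 3 genotypes, with 1400 at an unadjusted p under 0.05. With only HOM and HET fitted and that tumor left out, a setting added after the data were seen, the same 6 genes and Acly passed (7 genes, 0.0491%).

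WT tumors showed a like pattern within their own group. The tumor labelled WT 5 was above each of WT 1 to WT 4 in 9 of the 10 genes after Jup, and its Klhl11 level was 10.52 against 7.73 to 8.42 in those 4. Klhl10 and Klhl11 stand next to each other among the genes after Jup. The 250 bases before the start of each are shown (RefSeq, GRCm38.p6, 5′ to 3′ on each gene's own strand). Capitals mark a GC box, and the windows were searched on both strands for the TCF and LEF motif CTTTGAT, the E-box CACGTG and the GC box GGGCGG.
Klhl10, chr11:100441674-100441923, plus strand: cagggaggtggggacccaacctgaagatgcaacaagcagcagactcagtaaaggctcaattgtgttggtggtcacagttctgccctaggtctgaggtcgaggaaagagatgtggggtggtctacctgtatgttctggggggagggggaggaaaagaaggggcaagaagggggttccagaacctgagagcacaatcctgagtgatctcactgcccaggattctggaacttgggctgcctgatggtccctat
Klhl11, chr11:100472783-100473032, minus strand: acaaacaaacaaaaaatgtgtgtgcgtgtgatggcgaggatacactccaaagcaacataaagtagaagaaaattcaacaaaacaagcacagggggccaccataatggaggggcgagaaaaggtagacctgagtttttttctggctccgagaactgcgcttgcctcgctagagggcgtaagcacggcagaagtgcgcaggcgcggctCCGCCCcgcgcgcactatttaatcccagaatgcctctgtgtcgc
The Klhl11 window held 1 GC box, and neither window held the other 2 motifs. Of 32851 RefSeq promoter windows of the same length, 3.21% held CTTTGAT, 6.02% held CACGTG and 32.7% held GGGCGG.

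Among single genes, Ppan had the smallest p and 19 other named genes followed at a limma adjusted p of 0.587, with 4 unnamed gene models of that rank, all higher in HOM, left out. Among these 20, the HOM mean was higher for 15 and lower for 5, and with the models kept the 20 smallest p held 16 higher and 4 lower. For 18 of the 20 named genes the WT mean lay nearer the HOM mean than the HET mean, so these levels are not particular to HOM. In 12 of the named genes the groups did not overlap (1.03% of all tested genes), a share that follows from choosing them by p in the same comparison. Ppan, which is needed to assemble the large ribosomal subunit, had values of 10.49, 10.68, 10.23, 10.71 and 10.49 in HOM, against 9.85, 9.26, 9.49, 9.24 and 9.66 in HET. Every HOM tumor was above every HET tumor, a 2.03-fold difference in means (log2 1.02, SE 0.17, 95% interval 0.65 to 1.38, limma adjusted p = 0.448). Of the other 20 tested ribosome biogenesis genes, 12 had a higher mean in HOM, with a median difference of 0.03. Without HET 1, or without HET 5, 17 of the 20 were higher, by medians of 0.07. Over all tested genes, 52.4% had a higher mean, 47.6% a lower one, and the median difference was 0.01.

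Cdh19, a cadherin known from the neural crest and its Schwann cells, had values of 6.75, 6.34, 6.93, 5.30 and 4.91 in HOM, against 4.07, 4.87, 4.41, 3.81 and 3.74 in HET. The lowest HOM tumor lay just above the highest HET tumor, and all 5 HET values, like HOM 4 and the tumor labelled HOM 5, were below the median of their arrays, so the size of the difference (1.86, 95% interval 1.003 to 2.72) is uncertain. The WT values were 6.78 to 8.32. Boc, a co-receptor for Hedgehog ligands, had values of 11.22, 10.03, 9.63, 10.75 and 9.22 in HOM, against 8.32, 8.15, 9.31, 9.01 and 7.89 in HET. Only HET 3 overlapped, and it did so with the tumor labelled HOM 5 alone. Sardh, a mitochondrial enzyme gene that turns sarcosine into glycine, had values of 8.93, 8.57, 8.83, 8.34 and 8.43 in HOM, against 6.60, 6.73, 8.06, 7.30 and 7.58 in HET. Nsmf, which carries signals from synapses to the nucleus in neurons, was 8.05 to 8.39 in HOM and 7.31 to 7.69 in HET, and Trip6, a LIM protein of focal adhesions, was 8.18 to 8.38 in HOM and 7.501 to 7.99 in HET. Snord61, at low signal, was 5.29 to 6.27 in HOM and 4.55 to 4.91 in HET. In none of these 4 genes did the groups overlap.

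Genes with lower HOM means were fewer among the 20. Dpy19l3, which attaches mannose to tryptophans of secreted proteins, had values of 6.46, 6.67, 6.75, 7.09 and 6.81 in HOM, against 9.34, 8.16, 7.17, 8.65 and 7.98 in HET. All HOM tumors were below all HET tumors, with HET 3 the nearest. Hccs, which attaches heme to cytochrome c, was 9.49 to 9.77 in HOM and 9.88 to 10.54 in HET. Popdc3 encodes a cAMP-binding membrane protein of muscle. It had values of 4.20, 5.50, 5.21, 4.63 and 4.57 in HOM, against 7.77, 6.92, 8.13, 7.32 and 4.80 in HET, so that HET 5 lay among the HOM tumors and the other HET tumors above them all. Its neighbour on chromosome 10 and family member Bves, chosen after its values were seen, had 4.97 to 5.68 in HOM, against 8.41, 6.85, 8.53, 6.91 and 5.03 in HET. With HET 5 left out, limma called 3 genes (0.0211%): these 2 (differences -2.71 and -2.49, limma adjusted p = 0.0451 each) and the unnamed gene model Gm15867, higher in HOM and chosen after its values were seen. Popdc3 and Bves were below the array's median in all 5 HOM tumors and in HET 5, and they entered the test only through HET 1 to HET 4 and the tumor labelled WT 5, so the sizes of their differences are uncertain and no weight rests on their calls. The skeletal muscle list was highest in HET 3, while Popdc3 was also high in HET 1, which had a muscle mean of 6.05.

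**Figure D3:**
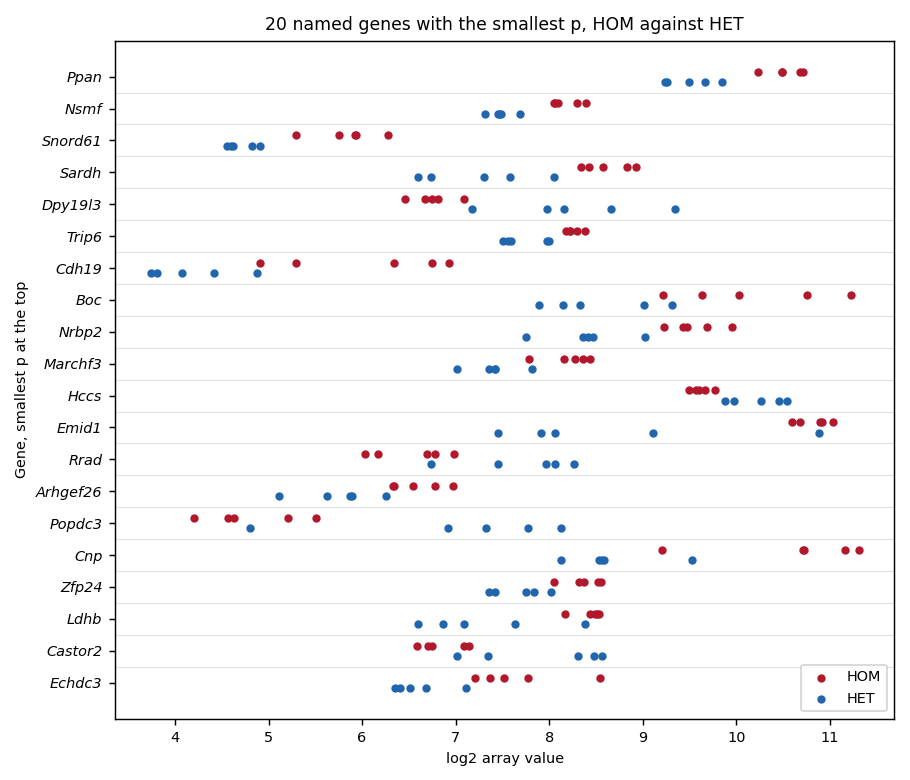
Log2 array values of the 20 named genes with the smallest p for HOM against HET, with 1 point per tumor and HOM drawn above HET for each gene. The groups were apart in 12 of the 20, and HET 3 (Emid1, Ldhb) or HET 5 (Popdc3) made the overlap in others.

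Across all tested genes, 87 (0.611%) were higher in all 5 HOM tumors than in all 5 HET tumors, and 59 (0.414%) were lower in all 5. Chance alone gives 0.397% in each direction on average. Besides Cdh19, the higher genes included Alpl, alkaline phosphatase, with 9.29, 9.81, 9.76, 9.29 and 9.37 in HOM, against 6.62, 8.02, 8.27, 6.63 and 9.13 in HET. HET 5 was close to the HOM tumors and HET 1 and HET 4 were far below. Crispld2, a secreted protein gene, was 11.49 to 11.995 in HOM, against 8.64, 9.44, 11.49, 10.14 and 10.64 in HET, and Trps1, a GATA-type repressor of luminal cells, was 9.59 to 10.17 in HOM, against 8.42, 8.42, 9.53, 7.46 and 9.59 in HET. In both, a HET tumor came almost up to the lowest HOM tumor. Tead2, a DNA-binding partner of YAP and TAZ, averaged 9.64 ± 0.29 in HOM and 8.38 ± 0.78 in HET (SD, n = 5 each). Mir140 had values of 6.04, 5.92, 5.74, 5.80 and 6.74 in HOM, against 4.15, 4.89, 4.51, 4.21 and 4.84 in HET, with no overlap (difference 1.53, limma adjusted p = 0.587). All 5 HET values were below the median of their arrays, and the gene entered the test only through the HOM tumors and the tumor labelled WT 5, so the size of this difference is uncertain too. The array reads the transcript of this gene, not the mature strand, which is printed with its seed, bases 2 to 8, in capitals (RefSeq, GRCm38.p6).
miR-140-3p: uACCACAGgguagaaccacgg
Among the lower genes, Dusp10, a phosphatase of stress kinases, had 6.09, 6.84, 6.83, 6.07 and 6.62 in HOM, against 8.71, 9.48, 6.86, 7.82 and 7.12 in HET. Gli3, a transcription factor at the end of the Hedgehog pathway, had 7.05, 7.08, 6.71, 6.73 and 7.37 in HOM, against 9.01, 8.90, 7.83, 8.89 and 7.40 in HET. In both genes the nearest tumors of the groups almost touched. Dusp9, a phosphatase of ERK kinases, was 6.39 to 7.77 in HOM and 7.84 to 9.77 in HET, and Gpr84, a fatty acid receptor of myeloid cells, was 5.74 to 6.54 in HOM and 6.68 to 9.02 in HET.

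The 37 gene lists are described by how many tested members had a higher or lower HOM mean and by their median difference, and no list had a member past the adjusted threshold. With 1 of the tumor labelled HOM 5, HET 1, HET 3 or HET 5 left out, the median turned in sign in 16 of the 37 lists and kept its sign in 21. For the Wnt pathway, whose nuclear arm needs beta-catenin, 9 of 21 tested target genes were higher and 12 lower by their HOM mean, with a median of -0.07 (-0.12 to 0.03 without 1 of the 4 tumors). The list's mean was 8.24, 7.84, 8.02, 8.12 and 8.44 in HOM, against 7.98, 7.95, 8.38, 7.998 and 7.93 in HET, with overlap. Axin2, a feedback inhibitor in the destruction complex and a common readout of Wnt signalling, had 7.55, 7.12, 7.41, 7.38 and 7.11 in HOM, against 6.94, 6.54, 7.81, 6.87 and 6.57 in HET (difference 0.37, 95% interval -0.95 to 1.68). HET 3 was above all HOM tumors and the other HET tumors below them all. With leukocyte and fibroblast marker means as covariates the Axin2 difference was -0.21. Lef1, a nuclear partner and target of beta-catenin, had 6.78, 5.76, 5.63, 6.70 and 10.08 in HOM, against 7.38, 6.27, 6.02, 6.31 and 5.81 in HET. The tumor labelled HOM 5 alone lifted the HOM mean, and the difference of 0.63 became -0.14 when it was left out.

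Other target and receptor genes also had differences of either sign. Ccnd1, the cyclin D1 gene, averaged 11.75 ± 0.24 in HOM and 12.23 ± 0.22 in HET (SD, n = 5 each), a difference of -0.48 (95% interval -0.88 to -0.08, limma adjusted p = 0.587). Rnf43, a ubiquitin ligase that removes Wnt receptors, had 9.57, 8.79, 9.55, 8.90 and 8.62 in HOM, against 7.30, 7.98, 9.34, 6.88 and 8.54 in HET, where HET 3 reached the HOM range. The R-spondin receptor gene Lgr4 was 10.21 to 10.83 in HOM, against 9.11, 9.93, 10.46, 9.20 and 10.05 in HET, and the related Lgr6 was 7.57 to 8.86 in HOM and 8.73 to 10.02 in HET. The frizzled receptor gene Fzd3 was 6.70 to 7.52 in HOM and 4.997 to 7.13 in HET. Of the 30 tested Wnt ligands, R-spondins and receptors, 13 were higher and 17 lower by their HOM mean, with 4 and 1 at an unadjusted p under 0.05 (4.82% and 3.11% over all genes) and a median of -0.03 (-0.12 to -0.06). In the list of the destruction complex and nuclear partners of beta-catenin, 13 of 16 had a higher mean, with a median of 0.14 (0.09 to 0.18). The clearest was Ctnnbip1, an inhibitor that keeps TCF from beta-catenin, at 8.53 to 9.03 in HOM and 7.25 to 8.61 in HET.

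Junction genes gave no common direction. Of the adherens junction genes 6 of 17 had a higher mean in HOM (median -0.15, and -0.04 without HET 5), of the desmosome genes 7 of 13 (median 0.04) and of the tight junction genes 12 of 17 (median 0.46). E-cadherin (Cdh1) had 11.86, 11.54, 11.95, 11.75 and 11.23 in HOM, against 8.38, 11.67, 11.72, 11.41 and 12.16 in HET. HET 1 alone set the difference in means of 0.60, which was -0.0761 without it. The tight junction median was 0.02 without HET 1 and 0.72 without the tumor labelled HOM 5, and the desmosome median -0.38 without HET 1 and 0.23 without HET 3. Cldn3, a claudin of tight junctions, had 11.83, 11.61, 12.02, 11.42 and 10.65 in HOM, against 8.27, 9.92, 11.43, 9.83 and 11.95 in HET, with HET 3 and HET 5 in the HOM range. Of the desmosomal cadherins, Dsg2 was 9.30 to 9.92 in HOM and 7.30 to 10.09 in HET, while Dsc3, a cadherin of basal and squamous layers, had 5.39, 6.82, 7.504, 4.84 and 5.03 in HOM, against 6.84, 10.30, 8.27, 9.38 and 4.92 in HET. Dsc3 was above the array's median in only 2 HOM, 4 HET and 0 WT tumors, so its low values are uncertain.

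Erbb2, the driver of the model, was lower on average in HOM. It had 10.52, 12.36, 10.56, 12.83 and 11.39 in HOM, against 12.92, 12.78, 12.52, 12.39 and 12.89 in HET. The HET tumors lay close together, HOM 4 was within their range, HOM 2 was just below it, and the other HOM tumors were well below it. The HOM mean was 2.25-fold lower (log2 difference -1.17, SE 0.47, 95% interval -2.17 to -0.16, limma adjusted p = 0.587). In WT tumors Erbb2 was 9.63 to 11.85, below every HET tumor, so a lower level than in HET was not particular to HOM. Pgap3, which lies next to Erbb2 and acts on lipid anchors of membrane proteins, had a higher mean in HOM (difference 2.62), with values of 11.64, 8.19, 11.37, 9.08 and 12.37 in HOM, against 7.07, 7.94, 8.26, 7.78 and 8.49 in HET. HOM 1, HOM 3 and the tumor labelled HOM 5 were far above the HET tumors and HOM 4 slightly above them. Among the HOM tumors, the first 3 had the lowest Erbb2 values. Stard3, a cholesterol transfer protein gene on the same side, had 11.03, 8.23, 10.95, 9.15 and 12.53 in HOM, against 7.93, 8.21, 8.31, 8.04 and 8.998 in HET. Grb7, on the other side of Erbb2, was 8.44 to 12.39 in HOM and 7.77 to 12.68 in HET. Its difference of 0.18 was -0.58 without HET 1. Over the whole list of Erbb2 and its neighbours 14 of 19 had a higher mean in HOM, with a median of 0.15 (0.08 without HET 3 and 0.34 without HET 5).

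Of 11 tested ErbB receptors and ligands, 2 were higher and 9 lower by their HOM mean, with a median of -0.27. The partner receptor Erbb3 was 1 of the 2 higher, with 10.88, 10.44, 11.32, 10.59 and 9.42 in HOM, against 7.19, 9.66, 10.45, 8.70 and 10.75 in HET. The ligand gene Ereg (epiregulin) had 7.09, 8.12, 6.42, 6.48 and 7.45 in HOM, against 11.40, 10.19, 7.19, 8.76 and 6.54 in HET. HET 1, HET 2 and HET 4 were above all HOM tumors, and HET 3 and HET 5 were among them.

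Milk genes, luminal markers and luminal progenitor genes mostly had higher means in HOM than in HET. All 12 tested milk secretion genes had a higher mean (median 0.98), as did 11 of 12 luminal markers (median 0.72) and 10 of 14 luminal progenitor genes (median 0.61, 6 higher at an unadjusted p under 0.05, as were 4.82% of all tested genes). Hormone-sensing luminal genes did not, with 3 of 6 higher and a median of -0.10 (-0.24 without HET 1 and 0.17 without HET 5). Sox10, a transcription factor of luminal progenitors and of neural crest cells, had 10.95, 10.47, 10.92, 10.65 and 10.88 in HOM, against 6.92, 8.14, 10.66, 7.25 and 10.61 in HET. Kit, the stem cell factor receptor of luminal progenitors, had 10.59, 11.06, 11.81, 10.43 and 9.97 in HOM, against 8.51, 9.04, 10.80, 9.18 and 10.19 in HET. Elf5, which drives the alveolar fate, had 9.40, 9.24, 9.29, 8.87 and 8.51 in HOM, against 5.70, 7.43, 9.42, 5.82 and 8.65 in HET. In these 3 genes HET 3 and HET 5 reached the HOM range and HET 1, HET 2 and HET 4 were below it. The differences were 2.06 (SE 0.64), 1.23 (SE 0.43) and 1.66 (SE 0.59), each with a limma adjusted p of 0.587. In WT tumors Sox10 was 10.60 to 11.73, Kit 10.03 to 11.12 and Elf5 8.97 to 9.84. Emid1, an extracellular matrix protein gene, had 11.03, 10.89, 10.91, 10.68 and 10.59 in HOM, against 7.45, 8.06, 10.88, 7.91 and 9.11 in HET, and it was the 1 gene (0.00702%) called without HET 3 (difference 2.69, limma adjusted p = 0.00518).

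Milk genes followed another order of tumors. Lalba, the alpha-lactalbumin gene, had 12.07, 12.07, 11.39, 11.11 and 11.54 in HOM, against 7.998, 9.05, 11.68, 9.30 and 5.27 in HET, with only HET 3 in the HOM range. The list mean was 10.78, 10.46, 10.07, 10.17 and 8.33 in HOM, against 8.95, 8.93, 10.63, 8.66 and 7.16 in HET. The tumor labelled HOM 5 lay below HET 1 to HET 4, and without it the list's median difference was 1.36. Without HET 5 that median was 0.43. Muc1, a luminal surface mucin, was 7.87 to 9.38 in HOM and 5.82 to 8.38 in HET. Keratin 18 (Krt18) averaged 12.13 ± 0.15 in HOM and 11.54 ± 0.52 in HET, and keratin 8 (Krt8) 12.27 ± 0.12 in HOM and 12.002 ± 0.33 in HET (SD, n = 5 each). The luminal marker median was 0.33 without HET 1.

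**Figure D4:**
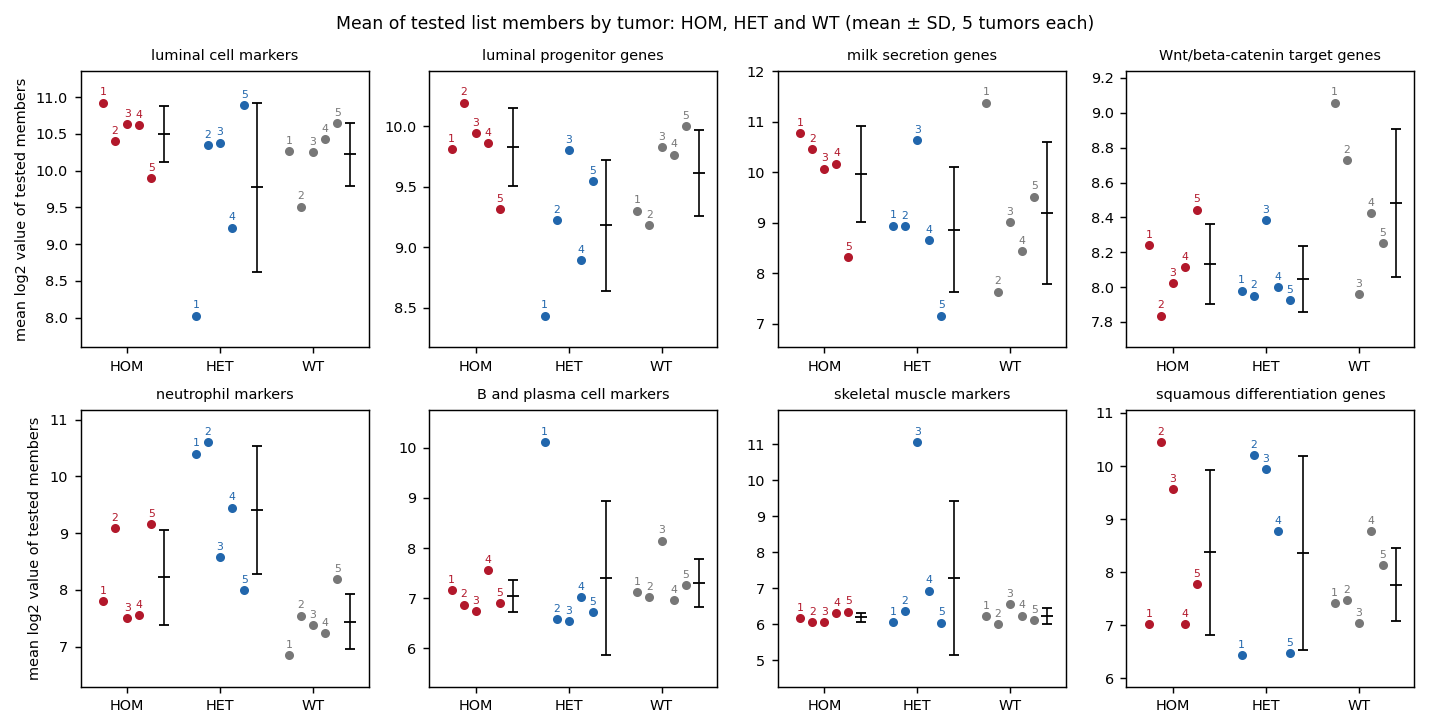
Mean log2 value over the tested members of 8 gene lists in each tumor, HOM left of HET and HET left of WT; digits are tumor numbers and bars give mean ± SD of 5 tumors. HET 1 was low in luminal markers and high in B and plasma cell markers, and HET 3 alone was high in skeletal muscle markers.

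Schwann cell and nerve markers had a higher HOM mean in 8 of 9 tested genes (median 0.81, and 0.54 without HET 1), among them Cdh19 and Sox10, the second of which luminal progenitors also express. S100b, another member, had 6.69, 4.96, 5.55, 5.40 and 8.35 in HOM, against 5.19, 4.15, 6.12, 4.87 and 4.26 in HET, with overlap. Basal and myoepithelial genes had a median of 0.07, with 8 of 14 higher, and -0.06 without HET 1. Krt14, a basal keratin, had 12.81, 12.55, 11.86, 12.53 and 11.09 in HOM, against 7.16, 13.43, 12.37, 12.77 and 10.32 in HET, and its difference of 0.96 was -0.0571 without HET 1. Squamous genes were divided within both genotypes, with list means of 10.46 and 9.57 in HOM 2 and HOM 3 and 7.02 to 7.78 in the other HOM tumors, against 10.21, 9.94 and 8.77 in HET 2, HET 3 and HET 4 and 6.44 and 6.47 in HET 1 and HET 5. Their median difference was 0.01, but -0.43 without HET 1, with 15 of 19 lower, and -0.31 without HET 5, with 14 of 19 lower. Sprr1a, a cornified envelope gene, spanned 7.71 to 12.48 in HOM and 7.07 to 12.91 in HET.

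Mesenchymal genes had lower HOM means in 13 of 15 members (median -0.37). The median was -0.04 without HET 1, and all 15 were lower without HET 5 (-0.80) and without the tumor labelled HOM 5 (-0.67). Vimentin (Vim) was 11.85 to 12.995 in HOM and 12.002 to 13.22 in HET, a difference of -0.17 (95% interval -0.91 to 0.58). Fibroblast and matrix genes had a median of -0.03, with list means of 7.84 to 10.15 in HOM and 6.68 to 11.40 in HET, the highest being HET 4. That median was -0.56 without HET 5, with all 18 tested members lower, -0.31 without the tumor labelled HOM 5, with 15 of 18 lower, and 0.06 without HET 1. Endothelial markers had lower HOM means in 13 of 14 members, by a median of -0.17 that was -0.04 without HET 1, -0.27 without HET 3, -0.44 without the tumor labelled HOM 5 and -0.54 without HET 5. Adipocyte markers had a median of 0.10 that was -0.17 without HET 5, -0.02 without HET 1 and 0.41 without HET 3. For skeletal muscle markers, 10 of 11 tested members had a lower HOM mean (median -1.19, and -0.19 without HET 3). The muscle creatine kinase gene Ckm reached 11.24 in HET 3, against 5.19 to 5.96 in the other 9 tumors. Ckm was above the array's median in 0 HOM, 3 HET and 2 WT tumors, so its low values are uncertain.

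Neutrophil genes had the most negative median of the 37 lists with all tumors, though not without HET 1, where skeletal muscle markers had -1.55. Of 17 tested members, 15 had a lower HOM mean and 2 a higher one, with a median of -1.27, and 5 were lower and 1 higher at an unadjusted p under 0.05 (3.11% and 4.82% over all genes). The list mean was 7.80, 9.09, 7.51, 7.56 and 9.15 in HOM, against 10.40, 10.61, 8.58, 9.45 and 8.003 in HET. HOM 2 and the tumor labelled HOM 5 overlapped with HET 3 and HET 5. Mmp8, the neutrophil collagenase, had 6.75, 8.04, 5.99, 6.60 and 7.11 in HOM, against 11.31, 9.84, 6.55, 10.64 and 7.92 in HET (difference -2.36, 95% interval -3.97 to -0.75, limma adjusted p = 0.587). Retnlg, a resistin-like gene of granulocytes, had 6.41, 8.03, 5.70, 6.07 and 8.80 in HOM, against 10.92, 11.03, 7.73, 8.69 and 7.92 in HET. Stfa2l1, a stefin of granulocytes, differed by -2.42 and Ly6g, the surface marker used to sort mouse neutrophils, by -1.66. The 1 member higher at that threshold was Lcn2, which mammary epithelium also makes, at 12.80 to 13.10 in HOM and 11.34 to 12.84 in HET. The chemokine gene Cxcl3, which attracts neutrophils, had 4.12, 6.12, 3.89, 5.12 and 6.55 in HOM, against 8.84, 10.90, 4.73, 9.06 and 3.78 in HET, so HET 1, HET 2 and HET 4 were above every HOM tumor. Cxcl3 was above the array's median in only 2 HOM, 3 HET and 1 WT tumors, so its low values are uncertain. The list median was -0.96 without HET 1, -1.53 without HET 3, -1.64 without HET 5 and -1.65 without the tumor labelled HOM 5.

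Other immune lists differed less. Pan-leukocyte markers had lower HOM means in 9 of 10 members (median -0.40, -0.25 without HET 1 and -0.63 without HET 3), with Ptprc, the common leukocyte antigen CD45, at 7.87 to 9.40 in HOM and 8.04 to 10.49 in HET. Macrophage markers had a median of -0.10, which was 0.01 without HET 1 and -0.26 without HET 3. T and NK cell markers had a median of -0.18 with 4 of 11 higher, and without HET 1 it was 0.20 with 9 of 11 higher. Arg1, an arginase of suppressive myeloid cells, averaged 10.12 ± 0.87 in HOM and 11.06 ± 1.32 in HET (SD, n = 5 each). B and plasma cell markers had a median of -0.46 that was 0.17 without HET 1, and the B cell receptor subunit gene Cd79b reached 10.90 in HET 1, against a range of 6.62 to 8.20 over the other HET tumors. Of 17 interferon response genes 14 had a higher HOM mean (median 0.21), but the median was -0.08 without the tumor labelled HOM 5, -0.03 without HET 3 and 0.53 without HET 5. MHC class I genes had a median of 0.04, which was 0.26 without HET 5, with all 12 tested members higher, and -0.04 without HET 3. Among 28 chemokine ligands 18 had a lower HOM mean (median -0.10, from -0.32 without the tumor labelled HOM 5 to 0.02 without HET 1), and Cx3cl1, the membrane-bound fractalkine, had a higher one, at 9.16 to 9.97 in HOM and 7.46 to 9.29 in HET.

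**Figure D5:**
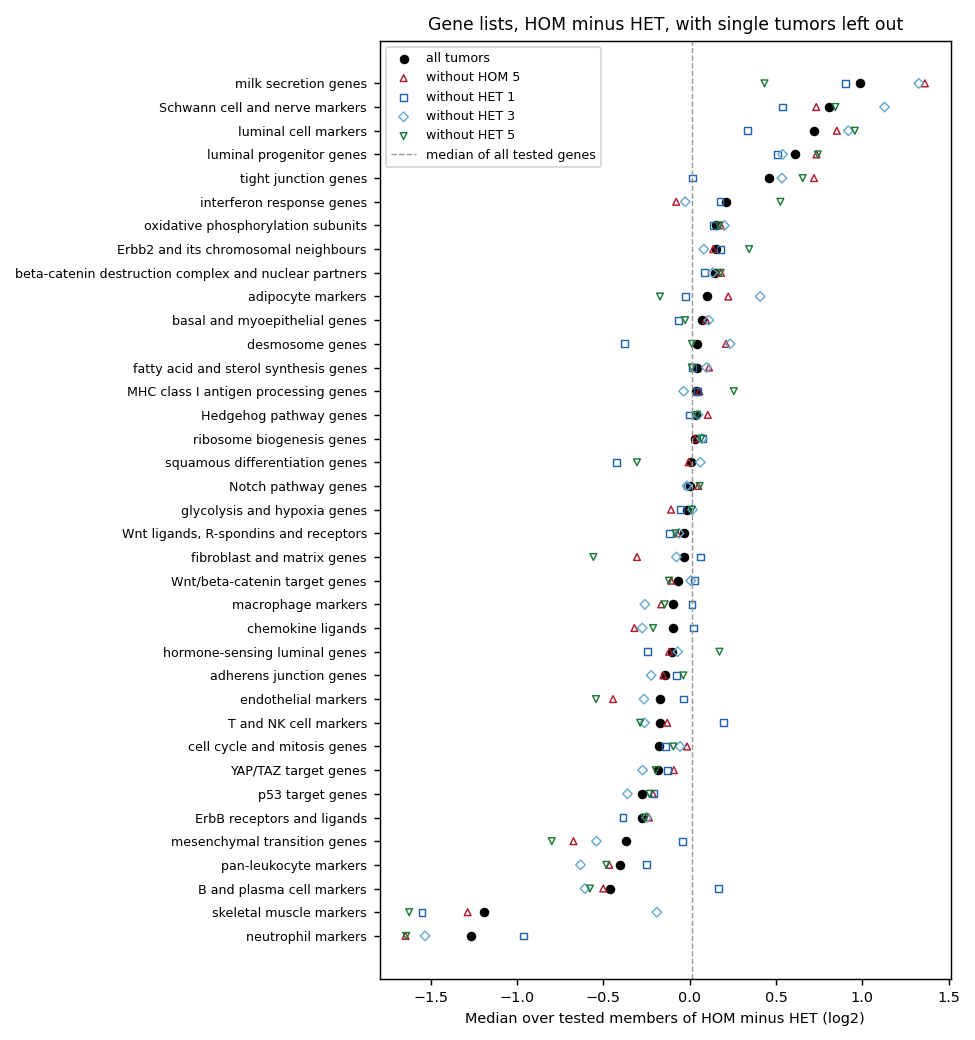
Median over tested members of HOM minus HET (log2) for 37 gene lists, ordered by the value with all tumors (filled circles); open symbols leave out 1 tumor, and the dashed line is the median of all tested genes, 0.01. Leaving out HET 1 brings the tight junction median to 0.02, and leaving out HET 3 brings that of skeletal muscle to -0.19.

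Hedgehog genes were divided, with 6 of 10 higher in HOM and a median of 0.04 (-0.0018 to 0.10 without 1 of the 4 tumors). Besides Boc and Gli3, the receptor and target gene Ptch1 was 8.77 to 9.34 in HOM and 8.06 to 9.33 in HET, and Gli2 was 5.61 to 6.33 in HOM and 5.41 to 7.13 in HET. Notch genes had a median of 0.00, and Hey1, a Notch target, averaged 9.67 ± 0.62 in HOM and 8.44 ± 0.94 in HET (SD, n = 5 each). YAP and TAZ targets had lower HOM means in 10 of 15 members (median -0.18, and -0.09 without the tumor labelled HOM 5). Cell cycle genes had lower means in 25 of 28 (median -0.18), but 14 had a higher and 14 a lower mean without the tumor labelled HOM 5, which had the lowest list mean of the 10 tumors, 8.47, and 12 a higher and 16 a lower mean without HET 3. Ccne1, the cyclin E1 gene, was 7.46 to 8.05 in HOM and 7.90 to 8.45 in HET. Targets of p53 had lower HOM means in 13 of 15 (median -0.27), with 3 lower at an unadjusted p under 0.05 (3.11% of all tested genes), among them Ccng1 at 11.41 to 12.08 in HOM and 12.06 to 12.32 in HET. That median stayed between -0.36 and -0.21 with any of HOM 5, HET 1, HET 3 or HET 5 left out.

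Among metabolic genes, the subunits of oxidative phosphorylation had a higher HOM mean in 27 of 31 members, by a small median of 0.15 that was 0.14 to 0.20 with any of the same 4 tumors left out. Cox4i1, a cytochrome c oxidase subunit gene, was 10.45 to 11.19 in HOM and 10.06 to 10.61 in HET. Fatty acid and sterol synthesis genes had a median of 0.04, with 10 of 18 higher. Srebf1, the transcription factor that drives fatty acid synthesis, had 10.02, 9.31, 9.39, 9.51 and 9.38 in HOM, against 8.41, 8.48, 9.25, 8.09 and 8.82 in HET, with no overlap (difference 0.91, 95% interval 0.34 to 1.48). Me1, malic enzyme, which makes NADPH for that synthesis, had 9.96, 10.41, 10.59, 9.34 and 9.90 in HOM, against 7.80, 9.29, 9.996, 8.97 and 8.51 in HET. Glycolysis and hypoxia genes had a median of -0.01, yet Hk2, hexokinase 2, was lower in every HOM tumor, with 7.52, 8.05, 8.20, 8.01 and 8.17 in HOM, against 8.74, 9.15, 8.51, 8.49 and 8.33 in HET. Ldhb, the lactate dehydrogenase subunit that favours pyruvate, was 8.16 to 8.53 in HOM, against 6.60, 7.63, 8.38, 7.09 and 6.86 in HET. None of these passed the test (limma adjusted p = 0.587 for Srebf1, Me1, Hk2, Ldhb and Cox4i1).

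The spread between tumors itself differed between the genotypes. The SD over 5 tumors was larger in HET than in HOM for 9578 of 14243 genes (67.2%), with a median SD of 0.245 in HOM and 0.308 in HET. The share was 74.98% without the tumor labelled HOM 5, 61.9% without HET 1 and 59.5% without HET 1 and HET 3. The genes of a tumor are not independent, so this count has no test. Of the HET tumors, HET 1 alone had another HET tumor, HET 4, as its closest match of all 15 by correlation over genes. HET 2 and HET 3 were closest to HOM 2, HET 4 to the tumor labelled HOM 5 and HET 5 to the tumor labelled WT 5.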

How the data were processed

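RNA from each tumor, 100 ng per the labels' protocols, was labelled and read on 1 Affymetrix whole-transcript array each. Per the submitters' processing notes, the authors used Affymetrix Expression Console and Transcriptome Analysis Console; the sources used here give no versions, normalization or genome build. The authors deposited 1 value per transcript cluster and tumor, taken here as log2 from their range, with array medians of 5.54 to 5.73. No scanner files were used, so background and detection were not varied. Precision is limited by the number of arrays.

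Of 41345 clusters, 23521 had exactly 1 gene symbol in the platform annotation, 1814 had several and named no gene, and 16010 were unnamed here. By Entrez ID, 23328 were found in RefSeq's GRCm38.p6 gene table, which changed 0 symbols. The cluster with the highest mean stood for each of 22180 genes. A gene was tested when above the array's median on at least 5 arrays (14243 genes); 576 of 682 listed genes were. Krt5, a gene fixed for naming, had no cluster of its own. No column of another sample was used (0).

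The 3 genotypes were fitted with limma 3.58.1 in R 4.3.3 (12 residual degrees of freedom). Tests were two-sided, with p-values adjusted by Benjamini-Hochberg over all tested genes and a threshold of 0.05. On simulated data with 14243 genes, the HOM against HET test made 151 calls, 5 of them false. It recovered 60 of 100 genes changed by 1 and 86 of 100 changed by 2 on the log2 scale. Recovery in the tumors themselves, where the SD was larger in HET than in HOM for 67.2% of genes, was not tested. Named genes were 15 fixed genes, the 20 with the smallest p, up to 10 per direction with the widest difference among groups that did not overlap, and up to 4 list members with the smallest p and 2 with the highest mean per list; others are said to be chosen after their values were seen. Members, lists and settings were chosen with earlier results of these data known. Settings tried were other filters, normalizations, cluster rules, variance models, samples and covariates, and leaving out tumors.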

Additional observations from a re-analysis of the deposited data

Results flagged for a closer look

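Single tumors lay far from the other 4 of their genotype in 22 of 298 groups checked, where the gap to the nearest tumor was over 0.71 of the whole range (Dixon's 95% value for 5 samples). Chance flags about 1 in 20 groups, and genes that vary together are flagged together. The tumor labelled HOM 5 accounted for 10 of them: Jup at 11.17, Lef1 at 10.08, Cnp at 9.21, Krt17 (a basal keratin) at 11.38, Acly at 10.42, P3h4 at 8.93, Nt5c3b at 8.56, Klhl11 at 7.57, Eif1-ps3 at 9.80 and the milk secretion mean at 8.33. Lef1 was high in it and the other 9 were low. Of these, P3h4, Nt5c3b, Klhl11 and Eif1-ps3 were chosen after their values were seen. Their flags are therefore no independent sign that this tumor stands apart. Elsewhere in HOM, Hk2 at 7.52 was low and Srebf1 at 10.02 high in HOM 1, Ldhb at 8.16 was low in HOM 3, and Ralgps2, a Ral exchange factor gene, at 5.71 was low in HOM 4.

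In HET, HET 1 had a low Cdh1 level of 8.38 and a high B and plasma cell mean of 10.12. HET 3 had high levels of the chloride channel gene Clic5 (7.60) and of Ckm (11.24), and high means of Wnt target genes (8.38) and skeletal muscle markers (11.07). HET 5 had high means of interferon response genes (9.52) and MHC class I genes (10.33). HET 2, HET 4 and HOM 2 were flagged in 0 groups.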

How the results depend on the processing

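The count of genes past the adjusted threshold was 0 unfiltered, with a filter at percentile 75, after quantile normalization or median centring, with clusters averaged, with trend and robust options, array weights, no moderation, only HOM and HET, the covariates, an adjusted p under 0.1 and 13 of the 15 fits that left out 1 tumor. Leaving out 1 tumor gave 0 to 3 genes, with 1 without HET 3 (Emid1) and 3 without HET 5. Leaving out HOM 5 and WT 5 gave 6, HET 1 and HET 3 gave 1 (Emid1), and only HOM and HET without HOM 5, added after the data were seen, gave 7. At an unadjusted p under 0.05, the 1129 genes became 693 with the stricter filter, which tests fewer genes, 1771 with array weights and 757 to 1832 with 1 tumor left out (1805 without HET 3, 1832 without HET 5). The Ctnnb1 difference of -0.02 ranged from -0.15 to 0.0606 with 1 tumor left out. Of the other 111 named genes followed across the settings, 104 kept their direction in all 28 settings, and 10 passed the threshold in some setting. Gm15867, which passed without HET 5, and Krt19 were not among these 111. Reversed values with 1 tumor left out were, as ranges, -0.0761 to 0.87 for Cdh1, -0.58 to 0.81 for Grb7, -0.14 to 0.97 for Lef1, -0.0571 to 1.51 for Krt14 and -1.45 to 0.0157 for Sprr1a. Without HET 1 and HET 3, Cdh1 was -0.0842, Grb7 -1.14 and Krt14 -0.00838. With leukocyte and fibroblast covariates Axin2 was -0.21 and Klk7, a squamous protease gene, -0.16. Lef1 was -0.14 whenever HOM 5 was left out. Fewer samples enter these fits, and the cause was otherwise not tested. No paired analysis was possible because the labels give no shared replicate numbers; those used here follow accession order. Signal over background was not analysed, which limits low genes such as Cdh19 and Snord61.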
